A study of Rattus norvegicus with 120 samples.

Results

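Kidneys of vehicle-fed ZSF1 obese rats, which received no drug, were compared between the studies of the series: 9 libraries of study B against 10 libraries of study A, which are 19 of the 120 libraries of the series. The libraries were chosen by their labels, organ kidney, genotype ZSF1 Obese, treatment Vehicle and study, and the original and repeat sequencing runs of each library were summed. Library 8 of study B was left out because it held 776178 counts. The ZSF1 obese rat is a hybrid rat with defective leptin receptors that becomes obese, diabetic and hypertensive and develops kidney disease and diastolic heart failure, and the ZSF1 lean rat is its unaffected relative. The series measured polyadenylated RNA of frozen kidneys and hearts at 30 weeks of age, with 10 rats in each condition, to study branched-chain amino acid catabolism. Study B fed obese rats empagliflozin, an inhibitor of the renal glucose transporter SGLT2, or BT2 together with empagliflozin, or vehicle. Study A fed obese rats BT2, an inhibitor of the branched-chain ketoacid dehydrogenase kinase, or vehicle, and held lean rats on vehicle. All compounds were given in chow. The comparison holds genotype, age and treatment label constant and shows how far kidneys of untreated obese rats differed between the studies. The labels do not say how the studies differed in cohort, date, chow batch or dissection. The series text names both whole kidney and kidney cortex while every label says only kidney, so which libraries were whole organ and which cortex cannot be told apart from study.

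The mammalian kidney is built of nephrons, each a glomerulus followed by a proximal tubule, a loop of Henle and distal segments that drain into collecting ducts. The glomeruli and the convoluted segments lie in the cortex, the straight segments and thin limbs reach into the medulla, and the collecting ducts run to the papilla, where urothelium lines the pelvis. Most segments carry their own transporters, so the mRNA of a piece of kidney mixes the segments it contains with the state of each. In bulk RNA, fewer cells of a type and less RNA per cell cannot be told apart.

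The obese kidneys of study B carried less mRNA of the glomerular podocyte and of the convoluted proximal tubule than those of study A, and more of the collecting duct and urothelium. Of 14545 genes tested, 9485 passed an adjusted p of 0.05 (65.2%), 4938 of them higher in study B (33.9%) and 4547 lower (31.3%). The median log2 fold change, study B over study A, was 0.03 over all genes tested, with quartiles of -0.36 and 0.39. At least 2-fold differences were called for 1322 genes (9.09%), of which 422 were higher (2.9%) and 900 lower (6.19%). The libraries of the studies did not overlap at all for 1187 genes (8.16%), of which 590 lay above in study B (4.06%) and 597 below (4.1%). The counts of gene lists that follow are to be read beside these shares. All p-values are from edgeR's quasi-likelihood test with plate as a covariate and Benjamini-Hochberg adjustment over all genes tested, fold changes are log2 of study B over study A with their standard error, and levels are counts per 1000000 counts of the library (CPM) scaled by TMM, edgeR's normalisation. CPM is not divided by transcript length, so levels are compared between libraries and not between genes. The labels call the libraries separate rats, and nothing else is known of how far litters or sampling days were shared within a study.

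Several libraries stood apart. Study B libraries held 8.36 to 19.65 M counts, where 1 M is 1000000 (median 9.55 M, 2 with a repeat run) and study A libraries 8.003 to 21.06 M (median 13.84 M, 6 with a repeat run). Mitochondrially encoded genes took 12.6 to 17.2% of counts in study B and 11.8 to 18.3% in study A. Counts on 18S and 28S ribosomal RNA, which poly-A selection should largely remove, were 0.0927 to 1.98% in study B (median 0.480%) against 0.0280 to 0.154% in study A (median 0.0440%), and only library 1 of study B fell within the range of study A. In heart the ranges were 0.0238 to 0.382% in study B and 0.0456 to 0.616% in study A. Genes with neither symbol nor description took 2.89 to 10.7% of kidney counts in study B (median 4.26%) and 2.30 to 2.94% in study A (median 2.47%). Library 1 of study B, at 2.89%, was again the only one within the range of study A. In heart this share was 1.23 to 3.48% in study B and 1.41 to 4.125% in study A. The summed CPM of cytosolic ribosomal protein genes, a list added after values were seen, was 21440 to 27560 in study B and 13670 to 26990 in study A, where libraries 6, 7, 9 and 10 lay at or above 21440. On the first principal component of the 500 most variable genes (36.4% of their variance), study A library 6 lay at 15.7, within the range of study B, and study B library 1 lay at -9.29, within that of study A. The other libraries spanned 2.52 to 35.6 in study B and -36.4 to -1.68 in study A. Many counts and calls depended on these libraries or shares, and the values obtained without them or with the share as a term are given beside many of them. The part of these shares in the results was not tested. Since only library 1 of study B had an rRNA share within the range of study A, a term for that share is largely confounded with study. A call lost with it can reflect a less precise estimate as well as a smaller one. With this term the list median of the convoluted proximal tubule was -1.07, against -1.01 without it. That of the connecting tubule was -0.33, against -1.16.

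**Figure D1:**
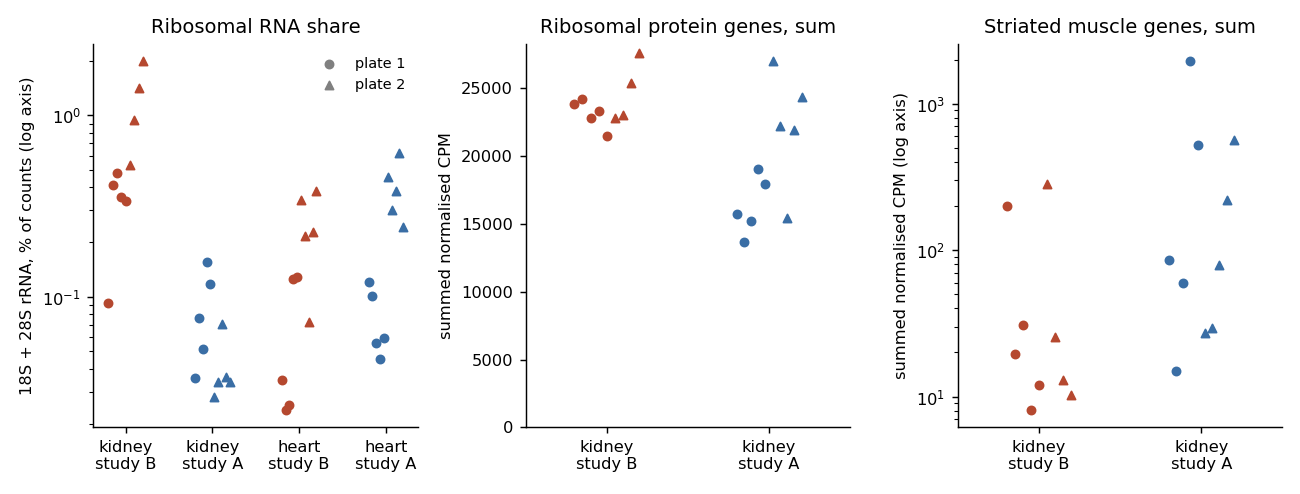
Library measures, 1 point per library, with circles for plate 1 and triangles for plate 2. The left panel gives 18S and 28S rRNA as a percentage of counts on a log axis in kidney and heart, the middle panel the summed CPM of cytosolic ribosomal protein genes in kidney, and the right panel the summed CPM of striated muscle genes in kidney on a log axis. Kidney libraries of study B lie between 0.0927 and 1.98% rRNA and those of study A between 0.0280 and 0.154%.

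Podocytes, which wrap the glomerular capillaries and hold the slit diaphragm, had lower marker mRNA in study B. Of 14 podocyte genes tested, 12 fell and 1 rose, against 31.3% and 33.9% of all genes. The median log2 fold change was -1.01 against 0.03 over all genes. In 5 of the 14 genes, and in 4.1% of all genes, every study B library lay below every study A library. Nphs1, which encodes the slit diaphragm protein nephrin, measured 6.92 to 19.2 CPM in study B (median 7.68) and 23.9 to 50.9 CPM in study A (median 43.0). Every study B library lay below every study A library. The log2 fold change was -2.02 ± 0.22 (adjusted p = 3.31e-07). Ptpro, a podocyte receptor phosphatase, fell by 1.32 on the log2 scale (adjusted p = 2.49e-07), and the transcription factor Wt1 fell by 1.96 (adjusted p = 5.34e-06). Cdkn1c, a cell cycle inhibitor of mature podocytes that other kidney cells also express, rose by 0.57 ± 0.15 (adjusted p = 0.00327). The number that fell was 12 in plate 1 alone and 11 in plate 2 alone, and 8 with the rRNA share as a term.

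Genes of the convoluted proximal tubule, which reclaims most filtered glucose, bicarbonate, phosphate and amino acids, were lower in study B. Of 16 genes tested 15 fell and none rose, with a median of -1.01, and the remaining one, Miox, an inositol oxygenase, had an adjusted p of 0.303. Slc4a4, the basolateral sodium bicarbonate cotransporter, measured 3.90 to 17.7 CPM in study B (median 10.1) and 26.9 to 284 CPM in study A (median 170). The groups did not overlap, and the nearest study A library to study B was library 6. The log2 fold change was -3.95 ± 0.36 (adjusted p = 1.03e-07), the largest drop of the list. The lactate transporter Slc5a12 measured 12.0 to 33.3 CPM in study B and 38.1 to 406 CPM in study A, and fell by 3.44 ± 0.34 (adjusted p = 1.93e-07). The neutral amino acid transporter Slc6a19 measured 3.90 to 11.6 CPM in study B and 12.7 to 131 CPM in study A, and fell by 3.42 ± 0.35 (adjusted p = 2.11e-07). These drops were larger than those of the other genes of the list. Slc34a1, the main sodium phosphate cotransporter of the segment, measured 1278 to 1843 CPM in study B (median 1655) and 1540 to 2285 CPM in study A (median 1931). Its groups overlapped and its log2 fold change was -0.25 ± 0.08 (adjusted p = 0.0129), which lost the call in plate 2 alone (adjusted p = 0.224), with the rRNA term (0.21) and with the ribosomal protein term (0.175).

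Slc5a2, which encodes SGLT2, the target of empagliflozin, measured 60.5 to 120 CPM in study B (median 89.5) and 102 to 321 CPM in study A (median 236). The ranges overlapped at their edges, and the log2 fold change was -1.35 ± 0.18 (adjusted p = 3.46e-06). The endocytic receptors for filtered protein, megalin (Lrp2) and cubilin (Cubn), fell by 0.81 ± 0.11 and 0.62 ± 0.11 (adjusted p = 5.18e-06 and 6.06e-05). Gatm, an enzyme of creatine synthesis, fell to a median of 408 CPM in study B, against 1815 CPM in study A, by 2.00 ± 0.23 on the log2 scale (adjusted p = 5.96e-07). Clcn5, which encodes the endosomal chloride-proton exchanger of this segment, was among the 10 lowest genes of the whole comparison, with 0.597 to 1.67 CPM in study B and 2.73 to 21.1 CPM in study A (log2 fold change -3.60 ± 0.31, adjusted p = 6.24e-08). The drop was therefore uneven within 1 segment, from -3.95 for Slc4a4 to -0.25 for Slc34a1. Leaving out study A library 6 or libraries 4 and 5 kept 15 of 16 genes lower, and plate 2 alone, the rRNA term and the ribosomal protein term each gave 12.

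The straight proximal tubule, which runs into the outer medulla, showed no common direction. Of 8 genes tested 3 rose and 3 fell, with a median of -0.20. Ggt1, a brush border enzyme of glutathione breakdown, measured 1462 to 2687 CPM in study B (median 1877) and 650 to 1666 CPM in study A (median 1079), with overlapping ranges and a log2 fold change of 0.86 ± 0.15 (adjusted p = 4.50e-05). The glutamate transporter Slc1a1 measured 38.6 to 58.4 CPM in study B and 64.7 to 87.1 CPM in study A, without overlap, and fell by 0.73 ± 0.07 (adjusted p = 1.76e-07). Slc5a1, which encodes the glucose transporter SGLT1, fell by 0.48 ± 0.14 (adjusted p = 0.0049), and with the rRNA term it measured 0.04 (adjusted p = 0.913). Slc7a13, an amino acid transporter of the last proximal segment in rodents, measured 383 to 1432 CPM in study B and 537 to 1325 CPM in study A, a difference within the spread of the libraries (adjusted p = 0.261).

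**Figure D2:**
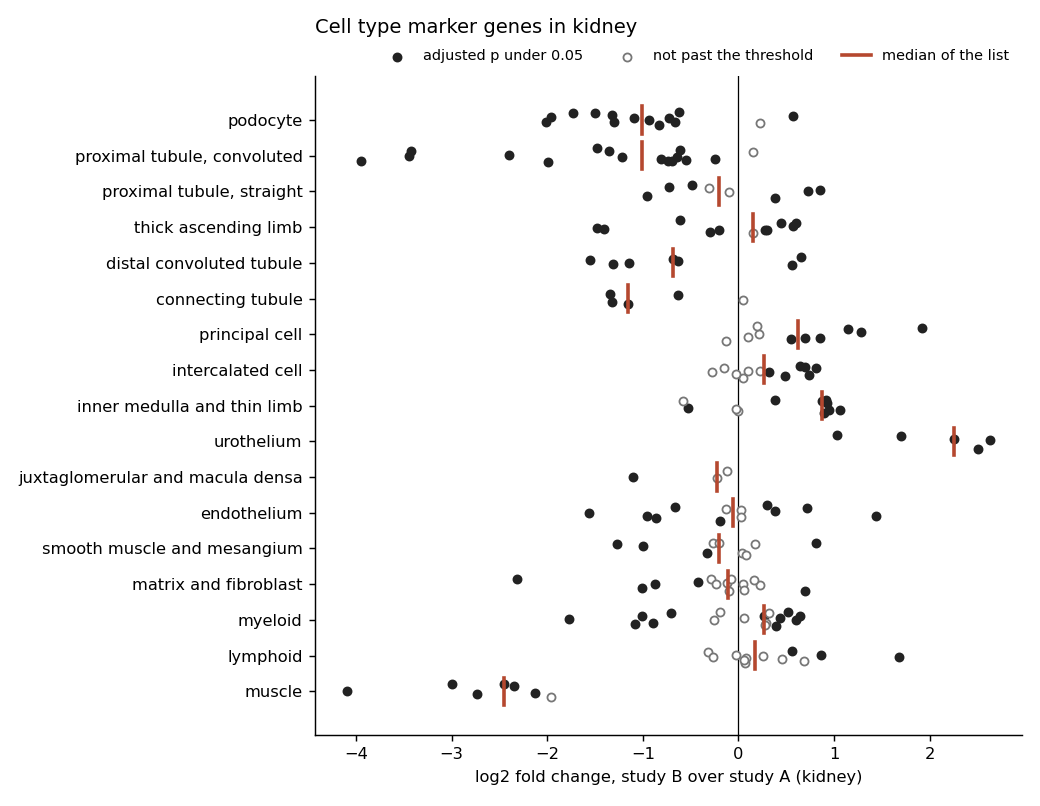
Log2 fold change, study B over study A, of each marker gene tested (1 point per gene) by kidney cell type, with filled points for an adjusted p under 0.05 and open points for the rest. The bar is the median of the list, -1.01 for both the podocyte and the convoluted proximal tubule, 0.62 for principal cells and 2.26 for urothelium.

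In the thick ascending limb, which reabsorbs salt without water, 5 of 11 genes rose and 5 fell, with a median of 0.16. Umod, which encodes uromodulin, the most abundant urinary protein of a healthy kidney, measured 3124 to 4900 CPM in study B (median 4067) and 2646 to 4561 CPM in study A (median 3541), with a log2 fold change of 0.16 ± 0.12 (adjusted p = 0.243). The salt transporter Slc12a1, the target of loop diuretics, measured 723 to 1240 CPM in study B and 1020 to 1539 CPM in study A, and fell by 0.29 ± 0.10 (adjusted p = 0.0113). This call was lost in plate 1 alone (adjusted p = 0.0851), in plate 2 alone (0.0696) and without study A libraries 4 and 5 (0.0529). Both of these segment-defining genes overlapped between the studies. A pair of less abundant genes separated the studies fully. The calcium-sensing receptor Casr measured 9.98 to 24.5 CPM in study B and 28.6 to 47.6 CPM in study A, and fell by 1.41 ± 0.13 (adjusted p = 1.25e-07). Tmem72, a membrane protein enriched in kidney, measured 26.4 to 50.7 CPM in study B and 72.5 to 119 CPM in study A, and fell by 1.48 ± 0.11 (adjusted p = 1.73e-08).

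The distal convoluted tubule, which fine-tunes salt and magnesium, and the connecting tubule, which reclaims calcium, were mostly lower in study B. Of 7 distal convoluted tubule genes 5 fell and 2 rose (median -0.68), and of 5 connecting tubule genes 4 fell and none rose (median -1.16). Slc12a3, the thiazide-sensitive salt cotransporter, measured 144 to 387 CPM in study B (median 188) and 330 to 577 CPM in study A (median 460). Only the highest study B library, library 1, reached into the study A range. Its log2 fold change was -1.15 ± 0.17 (adjusted p = 7.44e-06). Klhl3, an adaptor that marks WNK kinases for breakdown, fell by 1.56 ± 0.18 (adjusted p = 6.22e-07), and Sgms2, a sphingomyelin synthase, by 1.32 ± 0.09 (adjusted p = 1.73e-08). Wnk4, a kinase that sets the activity of the salt cotransporter, went the other way, with 315 to 435 CPM in study B and 179 to 303 CPM in study A, without overlap (log2 fold change 0.65 ± 0.08, adjusted p = 8.81e-07). In the connecting tubule, the calcium buffer Calb1 measured 64.5 to 272 CPM in study B (median 94.1) and 141 to 425 CPM in study A (median 332), and fell by 1.34 ± 0.26 (adjusted p = 0.000153). The sodium-calcium exchanger Slc8a1 fell by 1.32 ± 0.19 (adjusted p = 9.41e-06). With the rRNA share as a term, 2 of the 7 distal convoluted and none of the 5 connecting tubule genes fell, and Slc12a3, Calb1 and Slc8a1 had log2 fold changes of -0.35, -0.04 and -0.36 (adjusted p = 0.192, 0.937 and 0.254).

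Collecting duct principal cells, which move water and sodium under vasopressin and aldosterone, had higher marker mRNA in study B. Of 10 genes tested 6 rose and none fell, against 33.9% and 31.3% of all genes, with a median of 0.62. In 3 of them, and in 4.06% of all genes, every study B library lay above every study A library. Aqp2, the vasopressin-regulated water channel, measured 316 to 570 CPM in study B (median 489) and 67.3 to 242 CPM in study A (median 117). The groups did not overlap, and the log2 fold change was 1.92 ± 0.21 (adjusted p = 4.21e-07). The basolateral water channel Aqp3 measured 139 to 314 CPM in study B and 72.3 to 154 CPM in study A, with a log2 fold change of 1.15 ± 0.15 (adjusted p = 3.49e-06). Fxyd4, a sodium pump regulator, rose by 1.28 ± 0.16 (adjusted p = 1.97e-06), and Hsd11b2, the enzyme that protects the mineralocorticoid receptor from glucocorticoids, by 0.69 ± 0.09 (adjusted p = 2.37e-06). The sodium channel subunits were less even, since Scnn1b rose by 0.55 (adjusted p = 0.000296) while Scnn1a (0.22, adjusted p = 0.0526) and Scnn1g (0.19, adjusted p = 0.164) missed the threshold. The number that rose was 7 in plate 1, 5 in plate 2 and 8 with the rRNA term.

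Of 12 genes of intercalated cells, which secrete acid or bicarbonate, 6 rose and none fell, with a median of 0.27. The transcription factor Foxi1, which specifies these cells, measured 37.2 to 64.6 CPM in study B and 21.4 to 36.6 CPM in study A, without overlap (log2 fold change 0.74 ± 0.12, adjusted p = 1.98e-05). The anion exchanger Slc4a1 of acid-secreting cells measured 255 to 350 CPM in study B and 142 to 268 CPM in study A (0.69 ± 0.10, adjusted p = 4.34e-06). Slc26a4, which encodes pendrin of bicarbonate-secreting cells, measured 43.1 to 111 CPM in study B and 44.3 to 89.1 CPM in study A (adjusted p = 0.215). In plate 2 alone 2 genes rose and 1 fell, and with the rRNA term all 12 rose.

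**Figure D3:**
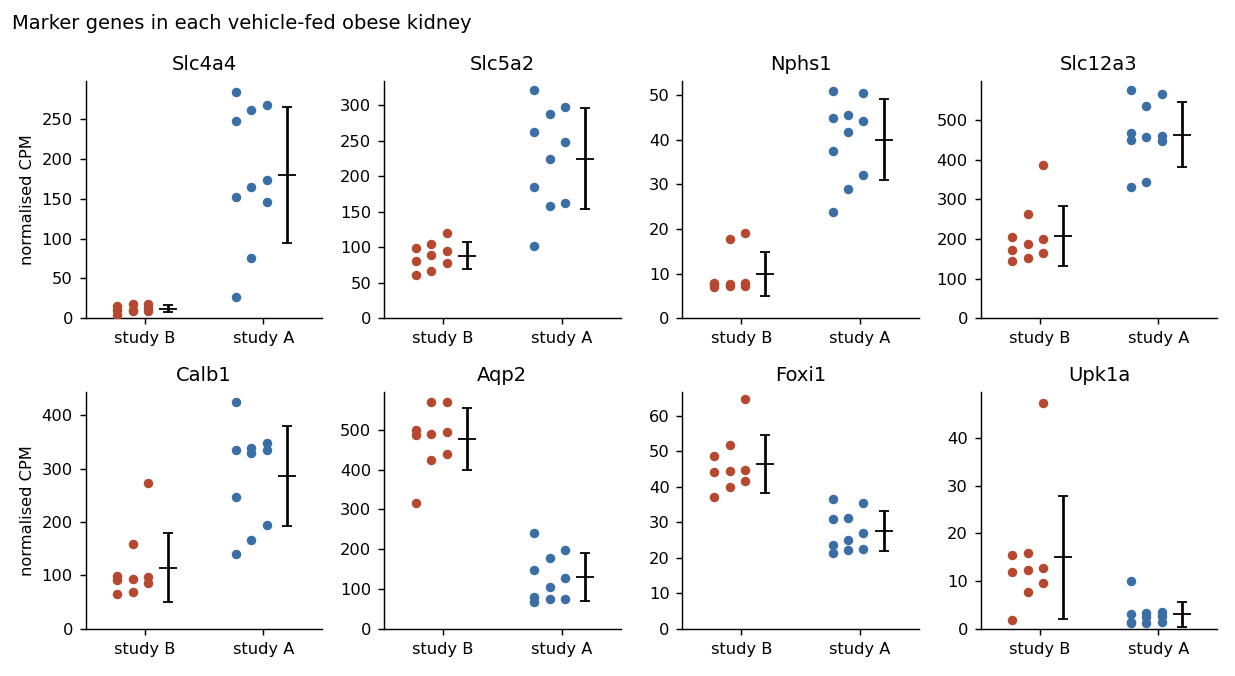
CPM of 8 marker genes in each vehicle-fed obese kidney, 1 point per library, with the mean and SD beside the points (9 libraries of study B and 10 of study A). Slc4a4 and Nphs1 are lower and Aqp2 and Foxi1 higher in every study B library than in any study A library, while Slc5a2, Slc12a3, Calb1 and Upk1a overlap.

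Genes of the inner medulla and thin limbs, where cells live in high salt, were mostly higher in study B. Of 12 genes in the list 11 were tested, and Slc14a2 was not found among the symbols of the counts. Of the 11 genes 7 rose and 1 fell, with a median of 0.87. In heart 6 genes of the list also passed the filter, so they are not confined to this region. The chaperone Cryab measured 205 to 468 CPM in study B and 111 to 261 CPM in study A (log2 fold change 0.92 ± 0.18, adjusted p = 0.000139). Among osmolyte transporters, the betaine transporter Slc6a12 rose by 0.92 ± 0.17 (adjusted p = 9.35e-05), and the inositol transporter Slc5a3 measured 5.44 CPM in study B and 8.25 CPM in study A as medians (adjusted p = 0.0658). Nfat5, the transcription factor that switches on both of these transporters, measured 243 CPM in study B and 236 CPM in study A as medians (adjusted p = 0.804). The number that rose was 4 in plate 1, 2 with the rRNA term and 3 with the ribosomal protein term.

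Urothelial genes, whose plaques seal the lining of the renal pelvis, were higher in study B, but 1 library led. Of 9 genes in the list 5 passed the filter on low counts and all 5 rose, with a median of 2.26. A gene can pass this filter through study B libraries alone, so the count favours genes that are high there. Without the filter 8 genes were tested and all 8 rose, with a median of 2.36. Upk1a, a uroplakin, measured 1.77 to 47.3 CPM in study B (median 12.3) and 1.19 to 10.1 CPM in study A (median 2.59), with a log2 fold change of 2.26 ± 0.46 (adjusted p = 0.000242). Upk2 and Upk3a rose by 2.64 ± 0.61 and 2.50 ± 0.60 (adjusted p = 0.000831 and 0.00123). The highest values of all 3 uroplakins were in library 1 of study B and library 5 of study A, the ranges overlapped, and in plate 1 alone Upk2 and Upk3a missed the threshold (adjusted p = 0.0507 and 0.0531). Guca2b, which encodes uroguanylin, a hormone that increases urinary salt loss, was among the 10 highest genes and measured 8.22 to 65.8 CPM in study B (median 37.5) and 2.74 to 11.2 CPM in study A (median 5.59), with a log2 fold change of 2.42 ± 0.34 (adjusted p = 5.46e-06). With the rRNA term it measured 1.20 (adjusted p = 0.14).

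Of the vascular and stromal cells, the endothelium split. Of 12 genes tested 4 rose and 5 fell, with a median of -0.05. Kdr, the VEGF receptor of capillary endothelium, which is abundant in glomeruli, measured 16.6 to 37.3 CPM in study B (median 26.8) and 41.5 to 108 CPM in study A (median 81.0), without overlap, and fell by 1.56 ± 0.16 (adjusted p = 2.48e-07). Ehd3, an endocytic protein enriched in glomerular endothelium, fell by 0.66 ± 0.11 (adjusted p = 3.24e-05). Slc14a1, the urea transporter of the descending vasa recta in the medulla, measured 25.3 to 55.3 CPM in study B and 9.19 to 26.8 CPM in study A, and rose by 1.44 ± 0.18 (adjusted p = 1.59e-06). Plvap, a protein of fenestrated capillaries and veins, rose by 0.72 ± 0.16 (adjusted p = 0.000611). The pan-endothelial genes Cdh5 and Tie1 measured 29.1 and 55.0 CPM in study B and 31.3 and 59.5 CPM in study A as medians (adjusted p = 0.797 and 0.805). Another, Pecam1, measured 64.2 to 102 CPM in study B and 69.4 to 103 CPM in study A and fell by 0.20 ± 0.08 (adjusted p = 0.0391), a call lost in plate 2 alone (adjusted p = 0.407), with the rRNA term (0.188) and in 11 of 19 fits that left out 1 library.

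Of 9 smooth muscle and mesangial genes 3 fell and 1 rose (median -0.21). Itga8, an integrin of mesangial cells, fell by 1.27 ± 0.19 (adjusted p = 8.53e-06) and Rgs5, a pericyte gene, by 0.99 ± 0.13 (adjusted p = 2.20e-06), while smooth muscle actin, Acta2, measured 39.2 CPM in study B and 34.4 CPM in study A as medians (adjusted p = 0.173). Of 14 matrix and fibroblast genes 1 rose and 4 fell (median -0.11). The proteoglycan Dcn fell by 1.01 ± 0.17 (adjusted p = 4.57e-05) and the metalloproteinase inhibitor Timp1 rose by 0.70 ± 0.11 (adjusted p = 2.92e-05; 0.174 with the rRNA term), while the fibrillar collagen Col1a1 measured 78.8 CPM in study B and 58.7 CPM in study A as medians (adjusted p = 0.284).

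Immune markers did not move as a block. Of 17 myeloid genes 6 rose and 5 fell (median 0.27), near the 33.9% and 31.3% of all genes. Of 12 lymphoid genes 3 rose and none fell (median 0.17). Mrc1 and Adgre1, surface proteins of tissue macrophages, fell by 1.09 ± 0.19 and 1.01 ± 0.19 (adjusted p = 5.56e-05 and 0.000142), while Cd68, a lysosomal macrophage protein, rose by 0.60 ± 0.13 (adjusted p = 0.000472). Cd79a, a B cell receptor subunit, measured 3.89 to 9.87 CPM in study B and 1.34 to 3.28 CPM in study A, without overlap (log2 fold change 1.68 ± 0.19, adjusted p = 5.85e-07). The T cell receptor gene Cd3e measured 3.25 CPM in study B and 3.04 CPM in study A as medians (adjusted p = 0.751). In plate 1 alone 1 myeloid gene rose and 5 fell.

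Of the tissues that adjoin the kidney, striated muscle had lower mRNA in study B. Of 7 genes of its list 6 fell (median -2.45), and the muscle genes Actc1, Myh7 and Mb were among the 10 lowest of the comparison. Actc1 is a member of this list, while Myh7 and Mb are not. The summed CPM of the muscle list was 8.09 to 283 in study B and 15.0 to 1945 in study A, where library 4 was highest at 1945, followed by libraries 10 and 5 at 569 and 524. With study A libraries 4 and 5 left out 1 of the 7 genes, Actc1, was still called lower and the median was -0.76. Without these libraries Actc1, Myh7 and Mb had log2 fold changes of -1.83, -1.88 and -1.80 (adjusted p = 0.00513, 0.00657 and 0.0199), against -4.09, -4.08 and -3.83 with them. In plate 2 alone none of the 7 was called, and with the rRNA term 2 were. Of 6 adipocyte genes 2 rose (median 0.32), near the 33.9% of all genes that rose, and of 5 liver genes 1 rose and 2 fell. Of 9 adrenal genes in the list 2 passed the filter, which a gene can do through study B alone, and both rose (median 0.88). The adrenal steroid enzyme Cyp21a1 measured 1.18 to 6.23 CPM in study B and 0.517 to 2.08 CPM in study A (adjusted p = 0.00264), and missed the threshold with the rRNA term (0.2) and the ribosomal protein term (0.0875). Of 2 red cell genes tested Hba-a2, a haemoglobin gene whose near-identical copies can share reads, rose by 0.63 ± 0.23 (adjusted p = 0.0236), and Ahsp, a haemoglobin chaperone, had -0.68 ± 0.37 (adjusted p = 0.116). The Hba-a2 call was lost in plate 2 alone (adjusted p = 0.568), without the plate term (0.0674), with the ribosomal protein term (0.372) and with the rRNA term (0.0759). Both Y-linked genes tested, Kdm5d and Eif2s3y, were expressed in every library and fell by 0.43 ± 0.08 and 0.22 ± 0.06 (adjusted p = 5.66e-05 and 0.00536). Both calls were lost in plate 2 alone (adjusted p = 0.117 and 0.0779), and that of Eif2s3y with the rRNA term (0.12).

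Tubule injury genes, which injured epithelium switches on, were mostly higher in study B, while the injury marker Havcr1 was not among them. Of 18 genes 11 rose and 2 fell, with a median of 0.60. Lcn2, which encodes the secreted injury marker NGAL, measured 43.9 to 141 CPM in study B (median 84.2) and 21.5 to 52.1 CPM in study A (median 35.9), with ranges that touched and a log2 fold change of 1.41 ± 0.19 (adjusted p = 4.50e-06). Clu, which encodes the chaperone clusterin, measured 768 to 1858 CPM in study B and 322 to 744 CPM in study A, without overlap (1.28 ± 0.18, adjusted p = 5.33e-06). Krt18, an epithelial keratin, also separated the studies (1.29 ± 0.14, adjusted p = 4.28e-07), and the stress cytokine Gdf15 rose by 1.5 ± 0.29 (adjusted p = 0.000136). Havcr1, which encodes KIM-1 of the injured proximal tubule, measured 190 to 394 CPM in study B (median 323) and 184 to 522 CPM in study A (median 240), with a log2 fold change of 0.14 ± 0.16 (adjusted p = 0.478). Itgb6, an integrin of injured and distal epithelium, fell by 0.96 ± 0.08 (adjusted p = 6.10e-08) and Vcam1, an adhesion molecule of tubules that fail to recover, by 1.01 ± 0.19 (adjusted p = 0.000104). With the rRNA term 2 genes rose and 2 fell, and Lcn2 measured 0.66 (adjusted p = 0.139). Several of these genes, such as Clu, Krt8 and Krt18, are also expressed by healthy collecting duct, of which 6 of 10 principal cell genes rose. The part of these cells in the injury counts was not tested.

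Injury genes were also higher in obese than in lean kidneys of study A, a comparison that shares the study A obese vehicle libraries, so its values are only set beside the others. There 4560 of 14230 genes were called (32%), 2398 higher in obese kidneys (16.9%) and 2162 lower (15.2%), with a median of -0.02. Of the 18 injury genes 16 were higher in obese kidneys and none lower, with a median of 1.00. Havcr1 had a log2 fold change of 3.76 for obese over lean and 0.14 for study B over study A. For Lcn2 the values were 2.98 and 1.41, and for Clu 1.86 and 1.28. For Aqp2 they were -0.01 and 1.92, and for Slc4a4 -0.39 (adjusted p = 0.29) and -3.95.

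Fatty acid oxidation genes and PPAR alpha targets were mostly lower in study B. Of 17 fatty acid oxidation genes 12 fell and 3 rose (median -0.26), and of 13 PPAR alpha targets 10 fell and 2 rose (median -0.85). Acsl1, which activates long-chain fatty acids, measured 80.6 to 133 CPM in study B and 145 to 249 CPM in study A, and Cpt1a, which admits them to mitochondria, 139 to 187 CPM in study B and 222 to 295 CPM in study A. Neither gene overlapped between the studies, and they fell by 1.04 ± 0.08 and 0.68 ± 0.06 (adjusted p = 4.23e-08 and 1.31e-07). Pdk4, an inhibitor of glucose oxidation, fell by 1.27 ± 0.13 (adjusted p = 2.62e-07), while Angptl4, a lipase inhibitor, rose by 0.38 ± 0.12 (adjusted p = 0.0086). Pck1, the key enzyme of renal glucose production, measured 705 to 1228 CPM in study B (median 841) and 1182 to 4108 CPM in study A (median 3344), and fell by 1.77 ± 0.18 (adjusted p = 2.53e-07). Of all 10 glucose and fructose genes 4 rose and 3 fell (median -0.03). In the respiratory chain 5 of 19 genes rose and 5 fell (median 0.07), against 33.9% and 31.3% of all genes. Uqcrc2 of complex III was lower by 0.97 ± 0.12 (adjusted p = 9.41e-07) and Cox6b1 of complex IV higher by 0.46 ± 0.07 (adjusted p = 1.15e-05). Of 13 mitochondrially encoded genes, a list added after values were seen, 4 fell and none rose. With the rRNA term 4 of 17 fatty acid oxidation genes fell.

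Branched-chain amino acid catabolism, the pathway that BT2 acts on, passed the test at some steps and missed it at others. Of 27 genes 12 fell and 3 rose, while 31.3% of all genes fell and 33.9% rose. The median was -0.09, close to the 0.03 of all genes. Ppm1k, which encodes the phosphatase that activates the branched-chain ketoacid dehydrogenase, measured 9.06 to 21.4 CPM in study B (median 14.6) and 29.1 to 49.8 CPM in study A (median 43.4), without overlap, and fell by 1.56 ± 0.14 (adjusted p = 9.24e-08). Bckdk, which encodes the kinase that BT2 inhibits, measured 127 to 166 CPM in study B and 103 to 154 CPM in study A, with overlapping ranges and a log2 fold change of 0.23 ± 0.06 (adjusted p = 0.00317). The subunits of the dehydrogenase moved apart. Bckdha rose by 0.48 ± 0.11 (adjusted p = 0.000914), Dbt fell by 0.67 ± 0.09 (adjusted p = 4.34e-06; 0.0919 with the rRNA term), and Bckdhb had -0.04 ± 0.09 (adjusted p = 0.69). In plate 2 alone Bckdk and Bckdha missed the threshold (adjusted p = 0.178 and 0.128), as they did with the ribosomal protein term (0.132 and 0.0907), and Bckdk had 0.052 with the rRNA term. Mmut, the mutase at the end of valine and isoleucine breakdown, fell by 1.20 ± 0.10 (adjusted p = 6.65e-08), and the first transaminase of the pathway, Bcat2, had -0.01 ± 0.12 (adjusted p = 0.924). Between obese and lean kidneys of study A, 22 of the 27 genes were lower and 1 higher, with a median of -0.43. In that comparison Ppm1k had -1.21, Dbt -0.45, Bckdhb -0.42, Bckdha -0.47 and Bckdk -0.22. The count of lower genes was 14 in plate 2 alone and 5 with the rRNA term.

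Hormone and mineral genes were mostly lower in study B, with angiotensinogen among the exceptions. Of 9 vitamin D and phosphate genes 5 fell and 1 rose (median -0.31). Kl, the co-receptor of the phosphate hormone FGF23, measured 19.2 to 54.3 CPM in study B (median 30.6) and 47.8 to 106 CPM in study A (median 78.7), and fell by 1.36 ± 0.13 (adjusted p = 1.73e-07). The vitamin D receptor Vdr fell by 1.17 ± 0.13 (adjusted p = 5.28e-07), and the apical calcium channel Trpv6 rose by 1.24 ± 0.30 (adjusted p = 0.00138). Of 7 angiotensin and aldosterone genes 5 fell and 1 rose (median -0.59). Agt, which encodes angiotensinogen, measured 62.7 to 113 CPM in study B and 21.5 to 57.5 CPM in study A, without overlap (log2 fold change 1.20 ± 0.17, adjusted p = 7.09e-06). The angiotensin receptor Agtr1a fell by 1.05 ± 0.20 (adjusted p = 0.000135), the peptidase Enpep, which breaks down angiotensin II, by 0.94 ± 0.10 (adjusted p = 4.07e-07), and the aldosterone-induced kinase Sgk1 by 0.97 ± 0.18 (adjusted p = 9.22e-05). Lepr, the leptin receptor, fell by 1.33 ± 0.32 (adjusted p = 0.00105) and lost the call in plate 2 alone (-1.06, adjusted p = 0.169), with the rRNA term (adjusted p = 0.0884) and with the ribosomal protein term (0.0896).

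The remaining stress and growth lists gave mixed counts. Of 9 NRF2 targets 5 rose and 3 fell (median 0.47), led by Gstm1, a glutathione transferase with close paralogues (0.99 ± 0.11, adjusted p = 4.07e-07). Of 12 amino acid stress genes 5 rose and 4 fell, of 14 hypoxia genes 5 rose and 3 fell, and of 8 heat shock genes 3 rose and 3 fell. Of 18 interferon response genes 5 rose and 4 fell, of 19 cell cycle genes 6 rose and 3 fell, of 15 fat synthesis genes 3 rose and 6 fell, and of 19 cholesterol synthesis genes 6 rose and 8 fell. The medians of these lists lay between -0.04 and 0.15. Among the genes at the ends of the comparison, 7SL RNA of the signal recognition particle (Metazoa_SRP and Rn7sl1) and the gene listed as 5_8S_rRNA, RNAs without a poly-A tail, were 3 of the 10 highest. Metazoa_SRP measured 0 to 41.4 CPM in study B (median 20.01) and 0 to 6.11 CPM in study A (median 0.759), a log2 fold change of 3.63 ± 0.69 (adjusted p = 0.000137). With the rRNA term Metazoa_SRP, Rn7sl1 and 5_8S_rRNA missed the threshold (adjusted p = 0.0833, 0.49 and 0.159). Ppp1r15a, which encodes a stress-induced phosphatase subunit that restores translation, rose by 2.08 ± 0.44 (adjusted p = 0.000394; 0.082 with the rRNA term). Of the 10 lowest, the toll-like receptor Tlr12 measured 0.849 to 3.11 CPM in study B and 2.63 to 50.7 CPM in study A, and Angptl7, an angiopoietin-like secreted protein, 0.485 to 3.02 CPM in study B and 3.67 to 35.6 CPM in study A. Slfn4, of which 1 of 2 identifiers with that symbol was tested, was at 0 in every study B library but library 5, which had 25.7 CPM, and was at 0 in 2 study A libraries and up to 53.8 CPM in the rest; its call was lost with the rRNA term (adjusted p = 0.106). Cytosolic ribosomal protein genes, a list added after values were seen, rose for 37 and fell for 1 of 65 (median 0.34), and 7 of them rose in plate 2 alone.

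The hearts of the same vehicle-fed obese groups, 10 libraries of study B and 10 of study A, gave a far smaller difference. Of 12433 genes tested 1459 were called (11.7%), 428 higher in study B (3.44%) and 1031 lower (8.29%), with a median of -0.02. Without the plate term 95 genes were called in heart. A test of the difference between organs, with organ, study and plate in one model, called 7665 of 15030 genes (51%), 3556 higher (23.7%) and 4109 lower (27.3%) in kidney minus heart. Which kidney and heart came from the same rat was not used. Immediate-early genes, which are transcribed within minutes of a stimulus, mostly went opposite ways in the organs. In kidney 10 of 13 rose and 1 fell (median 0.48), while in heart 10 of 12 fell and none rose (median -0.53), and the difference between organs was called higher for 11 of 13 and lower for none (median 0.93). Without the plate term the kidney count was 9 higher, the heart count 1 lower and the count for the difference 11 higher.

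Junb, a subunit of the transcription factor AP-1, measured 12.0 to 70.6 CPM in study B kidneys and 6.61 to 36.5 CPM in study A kidneys, with a log2 fold change of 1.14 ± 0.28 (adjusted p = 0.00157). In heart it measured 1.02 to 5.72 CPM in study B and 1.54 to 12.0 CPM in study A, with -1.17 (adjusted p = 0.00143). The ranges overlapped in both organs. Fos, the partner of Jun proteins, measured 4.54 to 9.79 CPM in study B kidneys and 2.44 to 9.31 CPM in study A kidneys (0.50 ± 0.22, adjusted p = 0.0495), and 0.154 to 1.43 CPM in study B hearts and 0.247 to 11.1 CPM in study A hearts (-1.94, adjusted p = 0.00853). Egr1, a zinc finger factor, rose by 0.82 ± 0.19 in kidney (adjusted p = 0.000672) and had -0.30 in heart (adjusted p = 0.183). Ier3, a survival factor, rose by 1.13 ± 0.12 in kidney (adjusted p = 2.30e-07) and fell by 0.42 in heart (adjusted p = 0.0101). Nr4a1, an orphan nuclear receptor, was the only one of the 13 called lower in kidney. It fell in both organs, by 0.93 ± 0.14 in kidney (adjusted p = 9.73e-06) and by 0.51 in heart (adjusted p = 0.0465). In plate 2 alone 2 of the 13 genes rose in kidney, and with the rRNA term 1 did. Without the plate term Junb, Fos, Ier3 and Nr4a1 lost their calls in heart (adjusted p = 0.131, 0.0912, 0.159 and 0.295).

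To show sequence shared by immediate-early genes that rose in kidney and fell in heart, the promoters that hold the full cyclic AMP response element TGACGTCA, the palindrome bound by CREB and ATF factors, are printed 5′ to 3′ from 250 bases before to 50 bases after the gene start, with that element in capitals. They are RefSeq sequences of the rat build GRCr8, while the counts used mRatBN7.2. Ier2 lies at chr19:40399123-40399422 on the plus strand, Btg2 at chr13:48087641-48087940 on the minus strand and Maff at chr7:112792537-112792836 on the plus strand.
Ier2: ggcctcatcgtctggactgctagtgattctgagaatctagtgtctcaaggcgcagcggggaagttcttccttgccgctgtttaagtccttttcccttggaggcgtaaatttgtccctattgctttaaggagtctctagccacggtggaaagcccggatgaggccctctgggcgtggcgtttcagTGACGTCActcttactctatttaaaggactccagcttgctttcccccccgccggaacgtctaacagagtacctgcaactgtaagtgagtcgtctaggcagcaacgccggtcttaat
Btg2: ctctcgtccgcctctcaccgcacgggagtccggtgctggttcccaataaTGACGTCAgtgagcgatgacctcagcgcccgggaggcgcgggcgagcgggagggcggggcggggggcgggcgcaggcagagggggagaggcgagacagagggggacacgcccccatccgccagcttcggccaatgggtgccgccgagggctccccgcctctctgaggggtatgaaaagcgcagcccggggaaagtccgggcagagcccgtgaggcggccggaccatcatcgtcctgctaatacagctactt
Maff: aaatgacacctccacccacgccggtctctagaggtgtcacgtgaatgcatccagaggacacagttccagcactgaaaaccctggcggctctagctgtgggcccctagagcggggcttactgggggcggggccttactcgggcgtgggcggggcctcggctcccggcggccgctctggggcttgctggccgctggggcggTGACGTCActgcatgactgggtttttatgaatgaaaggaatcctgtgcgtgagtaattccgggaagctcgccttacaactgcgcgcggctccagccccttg
The element begins 66 bases before the start in Ier2, 201 in Btg2 and 51 in Maff. It was present in 3 of the 8 immediate-early promoters matched by symbol (of 13 genes tested) and in 612 of all 33469 promoters (1.83%), and it reads the same on both strands. The CArG box, the element of serum response factor, searched on both strands, was in 3 others, Zfp36, Egr1 and Egr2, and in 548 promoters (1.64%). A match in these windows is a description of the letters and not a measured binding site. Ier2, an immediate-early gene of unsettled biochemical role, rose by 0.82 ± 0.19 in kidney (adjusted p = 0.000754) and fell by 0.78 in heart (adjusted p = 0.00101). Btg2, an antiproliferative factor, rose by 0.28 ± 0.11 in kidney (adjusted p = 0.0264) and fell by 0.41 in heart (adjusted p = 0.00301), and Maff, a small Maf factor, rose by 0.42 ± 0.11 (adjusted p = 0.00268) and fell by 0.53 (adjusted p = 0.0163). Zfp36, which destabilises cytokine mRNA, had -0.07 in kidney (adjusted p = 0.635) and fell by 0.98 in heart (adjusted p = 0.000661). Without the plate term Ier2, Btg2 and Maff lost their calls in heart (adjusted p = 0.176, 0.112 and 0.173), while Zfp36 kept its call (0.0159).

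Of the circadian clock genes, which cycle over the day in both organs, Per1, Per3 and Nfil3 were among those that changed in both. In kidney 5 of 17 rose and 7 fell (median -0.25), a share near the 65.2% of all genes called. In heart 3 of 18 rose and 7 fell (median -0.04), against 11.7% of all genes called. The difference between organs was called for 7 of 18, 3 higher and 4 lower, a smaller share than the 51% of all genes. The period gene Per3 measured 9.78 to 20.4 CPM in study B kidneys and 15.2 to 35.7 CPM in study A kidneys (log2 fold change -0.98 ± 0.14, adjusted p = 9.51e-06), and 6.08 to 17.7 CPM in study B hearts and 9.53 to 41.9 CPM in study A hearts (-1.32, adjusted p = 0.00069). Per1 fell by 0.59 ± 0.17 in kidney and 0.92 in heart (adjusted p = 0.00548 and 0.000661). Nfil3, a repressor of period-linked output genes, rose by 0.65 ± 0.11 in kidney and 0.41 in heart (adjusted p = 3.25e-05 and 0.0039). Bmal1, the activator that drives the period genes, measured 22.1 to 46.2 CPM in study B kidneys and 22.7 to 42.9 CPM in study A kidneys (adjusted p = 0.751), but 21.7 to 38.7 CPM in study B hearts and 8.23 to 27.0 CPM in study A hearts, where it rose by 0.92 (adjusted p = 0.00065). Its partner Clock fell by 1.18 ± 0.13 in kidney (adjusted p = 5.18e-07) and had 0.03 in heart (adjusted p = 0.894). Dbp, an output factor of the clock, had -0.46 in kidney (adjusted p = 0.0534) and fell by 1.5 in heart (adjusted p = 0.000884). Without the plate term Per1, Per3, Nfil3, Bmal1 and Dbp kept their calls in heart. The labels used here give no hour of tissue collection.

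**Figure D4:**
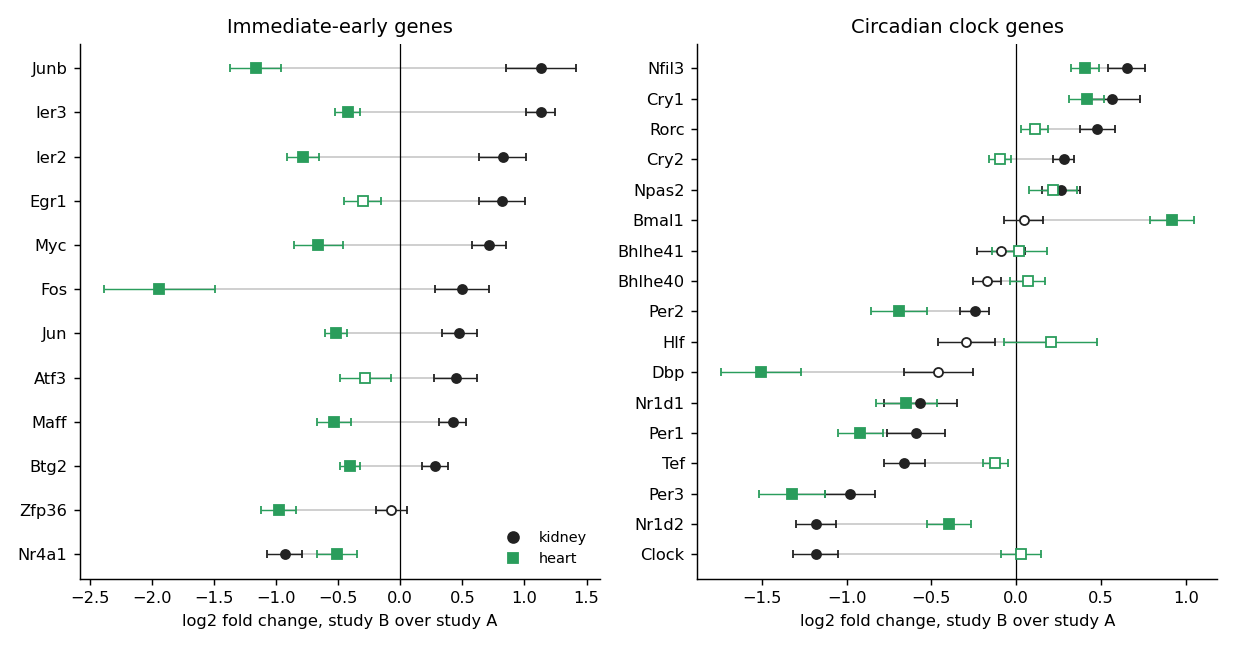
Log2 fold change, study B over study A, with its standard error, of immediate-early genes (left) and clock genes (right) in kidney (black circles) and heart (green squares), with filled symbols for an adjusted p under 0.05. Of the immediate-early genes, Junb lies at 1.14 in kidney and -1.17 in heart and Nr4a1 is below 0 in both, while Per3 is below 0 in both organs and Bmal1 is above 0 by 0.92 in heart.

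The drug-fed kidneys of each study had levels nearer to those of their own vehicle group than to those of the other study for Slc4a4, Nphs1, Kdr and Aqp2. These levels come from all 6 kidney groups scaled together, with 1 library of fewer than 1000000 counts left out of the study A BT2 group and library 8 of the study B vehicle group left out, and they are given as a description. Slc4a4 had medians of 15.3 CPM with empagliflozin, 6.55 CPM with BT2 and empagliflozin and 9.67 CPM with vehicle in study B. In study A the medians were 99.1 CPM with BT2, 165 CPM with vehicle and 236 CPM in lean kidneys on vehicle. The study B libraries reached at most 56.9 CPM, in the empagliflozin group, and the study A libraries went down to 26.1 CPM, in the obese vehicle group. Nphs1 had medians of 11.9, 8.77 and 7.48 CPM in the empagliflozin, combination and vehicle groups of study B, and 48.4, 42.6 and 63.6 CPM in the BT2, obese vehicle and lean vehicle groups of study A. Kdr behaved likewise, with medians of 29.3, 28.1 and 26.1 CPM in those groups of study B and 75.3, 80.1 and 111 CPM in those of study A. Aqp2 ran the other way, with 445, 634 and 472 CPM in study B and 210, 114 and 131 CPM in study A, in the same order.

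Ppm1k and Lcn2 did not follow the study alone. Ppm1k had a median of 16.6 CPM with empagliflozin, 52.7 CPM with BT2 and empagliflozin and 13.96 CPM with vehicle in study B, and 48.7 CPM with BT2, 42.5 CPM with vehicle and 102 CPM in lean kidneys in study A. The median of the combination group of study B thus lay above those of both obese groups of study A, and that of its own vehicle group below them. Lcn2 had medians of 97.5, 42.6 and 81.8 CPM in the empagliflozin, combination and vehicle groups of study B, and 31.4, 35.1 and 2.63 CPM in the BT2, obese vehicle and lean vehicle groups of study A.

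**Figure D5:**
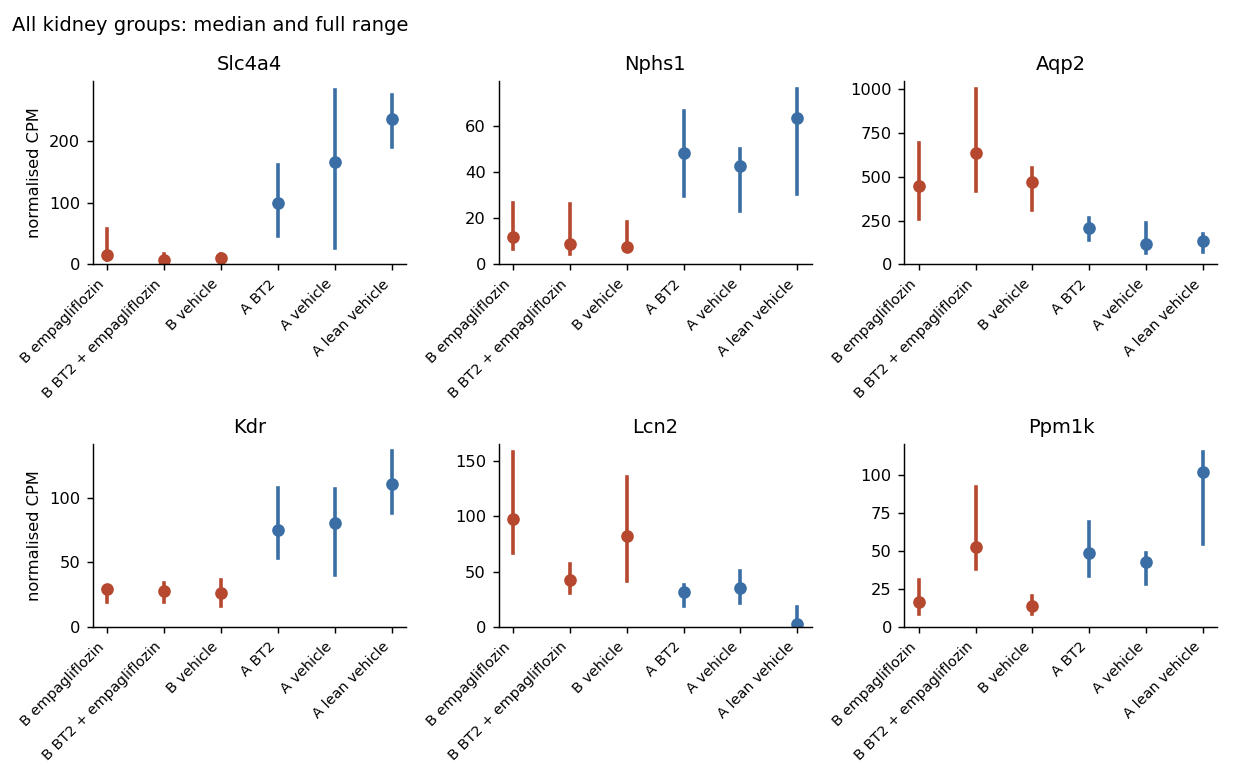
CPM of 6 genes in all 6 kidney groups, with study B groups on the left and study A groups on the right. The point is the median of a group and the line runs from its lowest to its highest library. The medians of Slc4a4, Nphs1 and Kdr are lower and that of Aqp2 higher in each study B group than in any study A group, while the medians of Ppm1k (52.7 CPM) and Lcn2 (42.6 CPM) in the combination group differ from those of study B vehicle (13.96 and 81.8 CPM).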

How the data were processed

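Poly-A RNA of about 50 mg of frozen tissue (400 ng of total RNA, RNA integrity number of at least 7) was made into TruSeq stranded libraries with 15 PCR cycles and read as 75-base pairs, per the labels' protocols. The build was mRatBN7.2, and the tools included Salmon 1.5.2 and STAR 2.7.3a, per the submitters' processing notes, which give no order of steps. The gene tables deposited by the authors hold estimated counts, of which 6.851% were not whole. The authors' deposited scaled counts (signal) were used only as a check: all 19 vehicle obese kidney columns were proportional to the summed runs, with a coefficient of variation under 0.01. Of the count columns 163 were used, and 82 of no sample described here were not used.

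Original and repeat runs were summed per library and rounded. Of 30560 genes, 23398 had a symbol. Genes were filtered with filterByExpr and tested with edgeR 4.0.16 (quasi-likelihood F test, TMM, trended dispersion, R 4.3.3) with plate as covariate, and an adjusted p under 0.05 was called. A standard error is the log2 fold change divided by the square root of F. The fits were tested on simulated data. Heart, the organ difference, and obese against lean in study A were fitted likewise. Alternatives included DESeq2 1.42.0, other filters, single plates, each library left out, and terms for rRNA and ribosomal protein mRNA share, the last 2 and leaving out study A libraries 4 and 5, or 6, or rRNA genes being chosen after seeing the data. The members and gene lists were chosen with earlier results of these data known. The genes named by rule were the extremes of the fold change (10 at each end, called, with a symbol and a mean of 5 CPM or more in either group), the 2 best-supported called members per list, and a fixed set of segment, catabolic and clock genes. Other list members that are named were added after their values were seen. Some list members are counted but not reported here by name. Same-numbered libraries of the studies were not treated as paired.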

Additional observations from a re-analysis of the deposited data

Results flagged for a closer look

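Of 316 groups of 9 or 10 kidney libraries examined, 30 held a library whose gap to the next exceeded Dixon's 95% critical value, where chance gives about 1 in 20. Library 1 of study B stood apart 9 times, study A library 5 in 7, library 4 in 5 and library 6 in 3 cases, and libraries 2, 3, 5 and 10 of study B and 8 and 10 of study A once each. In study B library 1, Upk2 measured 28.8 CPM (next 6.97), Upk3a 50.4 (next 14.2), Upk1a 47.3 (next 15.8) and Sprr1a, a cornified envelope protein, 29.4 CPM (next 7.67). In the same library Slc8a1 measured 102 CPM, Calb1 272, Kl 54.3 and Slc12a3 387 CPM, each the highest of study B. The summed urothelium list was 235 CPM there. In study A library 5 the values were 5.26 CPM for Upk2, 9.22 for Upk3a, 10.1 for Upk1a, 9.44 for Rn7sl1, 1225 for the summed inner medulla and thin limb list, 89.4 for the urothelium list and 1067 for the cholesterol synthesis list. In study A library 4, Actc1 measured 103 CPM, Myh7 176, Mb 240, Mylpf 151 and the summed muscle list 1945 CPM. In study A library 6, Ier3 measured 42.1 CPM and Havcr1 522 CPM, the highest of study A, and the summed clock list 585 CPM, the lowest. The single cases were Slfn4 at 25.7 CPM in study B library 5, Cyp21a1 at 6.23 CPM in library 2, Slc34a1 at 1278 CPM in library 3, Dbp at 33.9 CPM in library 10, 5_8S_rRNA at 21.5 CPM in study A library 10 and Gstm1 at 51.2 CPM in library 8.

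Of 67 named genes tested in both organs, 59 had a study B over study A difference in kidney that was called different from that in heart by edgeR's interaction test. Over all genes of that test 7665 of 15030 were called (51%). Many named genes were chosen because they were called in kidney, so the shares are not comparable. Values are log2, kidney minus heart. Lowest were Slfn4 (-4.57), Actc1 (-4.14), Myh7 (-3.76), Mb (-3.61), Slc4a4 (-2.40), Itga8 (-2.21), Klhl3 (-1.86) and Kdr (-1.77). Next came Slc8a1 (-1.69), Mmut (-1.65), Ppm1k (-1.59), Vnn1 (-1.55), Vdr (-1.47), Slc12a3 (-1.42), Acsl1 (-1.41) and Pdk4 (-1.37). They were followed by Sgms2 (-1.36), Vldlr (-1.31), Uqcrc2 (-1.31), Clock (-1.28), Slc1a1 (-1.23), Ptpro (-1.16), Ndufs1 (-1.15) and Sc5d (-1.14). Smaller drops were those of Dbt (-1.04), Ifit2 (-0.996), Enpep (-0.99), Cpt1a (-0.91), Bnip3 (-0.89), Nr1d2 (-0.85), Adgre1 (-0.83) and Mrc1 (-0.79). The least low were Kif11 (-0.74), Rgs5 (-0.72), Tyms (-0.71), Pdgfra (-0.70), Acaca (-0.55), Eif2s3y (-0.45) and Kdm5d (-0.38). The highest were AABR07000398.1 (4.91), Metazoa_SRP (3.81), Ppp1r15a (2.17), Lcn2 (1.71), Mvd (1.68), Hba-a2 (1.61) and Ier3 (1.49). These were followed by Psmb8 (1.32), Gstm1 (1.18), Cryab (1.03), Dbp (0.98), Timp1 (0.98), Asns (0.81) and Aldoa (0.76). The least high were Bckdha (0.74), Slc4a1 (0.66), Tf (0.53), Bag3 (0.34), Dnajb1 (0.29) and Bckdk (0.25).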

How the results depend on the processing

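In kidney 9485 genes were called, and leaving out each library in turn gave 8980 to 9617 called, 4669 to 5019 higher and 4311 to 4613 lower. Plate 2 alone gave 5073 (2402 higher, 2671 lower) and the rRNA term 4970 (2503 higher, 2467 lower), for which the cause was not tested. Plate 1 alone gave 8158. Each plate alone holds fewer libraries than the main fit, and the rRNA share largely separates the studies. These counts by themselves therefore cannot tell smaller differences from less precise estimates. List medians in plate 1 and plate 2 alone were 0.82 and 0.37 for principal cells and 0.52 and -0.04 for intercalated cells. They were -1.20 and -0.85 for the convoluted proximal tubule, -1.01 and -1.05 for the podocyte, and -0.87 and -1.47 for the connecting tubule. With the ribosomal protein term 3220 were higher and 6478 were called in all. In heart the 1459 calls became 95 without the plate term (13 higher, 82 lower), and DESeq2 called 856 higher. The fit with the replicate block in place of plate called 8673 genes in kidney, 1281 in heart and 4116 in obese against lean kidneys. Of 9 same-numbered pairs 5 had a correlation of deviations over 0.1 (range -0.33 to 0.17) and 1 library matched best with its own number, so no strong pairing was seen. Whether same-numbered libraries shared any handling was not tested. Obese against lean gave 5423 calls without lean library 8. Directions that turned were those of Rn7sl1 (-1.52), Slc5a1 (0.039), Slc7a13 (0.49), Bckdhb (0.37) and Bcat2 (0.41) with the rRNA term, of Umod in plate 2 (-0.0118) and with the ribosomal protein term (-0.0704), and of Bckdhb (0.0817) and Bcat2 (0.20) in plate 1. Bcat2 measured 0.0284 without study A libraries 4 and 5, and -0.0705 to 0.053 with each library left out. Of 107 named genes that were called, 30 lost their call with the rRNA term, 22 in plate 2, 14 with the ribosomal protein term and 9 in plate 1. Counting error limits genes of a few CPM, which rest on few reads in the shallowest libraries.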
